A study of Mus musculus with 60 samples.

Results

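Liver RNA of male and female mice was compared in 12 of the 60 libraries of a study of salivary glands, pancreas and liver. The libraries were chosen by their labels: the 6 from males and the 6 from females whose tissue is liver, with strain as a covariate and with genes on X and Y left out. In each sex 3 libraries came from CD1, an outbred stock, and 3 from C57, an inbred strain, which gave the groups CD1 male, CD1 female, C57 male and C57 female with 3 libraries each. The study sampled 5 tissues of the same 12 animals by RNA sequencing after poly(A) selection. The labels give no age, treatment or genotype beyond the strain, and each liver library stands for 1 animal, so the spread between libraries includes the spread between animals.

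The liver is among the tissues in which male and female rodents differ most in gene expression. Much of that difference is set by the timing of growth hormone release from the pituitary, which is pulsed in males and nearly continuous in females and acts on hepatocytes through the growth hormone receptor and the transcription factor STAT5b. Known outcomes are male-typical secretion of major urinary proteins, lipocalins that carry pheromones into urine, and sex-typical sets of cytochrome P450 enzymes, sulfotransferases and flavin monooxygenases that handle steroids, bile acids, lipids and foreign compounds.

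Library totals were 37.2 to 51.4 M counts. Levels are in CPM, a gene's counts divided by its library's total count in M, scaled by edgeR's trimmed mean of M-values. Alb, the plasma albumin gene that marks hepatocytes, was at 41529 to 67837 CPM across males and 35623 to 89401 CPM across females, and Xist was 1.04 to 4.20 CPM in males against 236 to 602 CPM in females. Each library thus carried the marker of its labelled tissue and sex. The library of CD1 female 2 stood apart: 19.1% of its counts were mitochondrial, against 4.34% to 7.03% in the other 11, and its Alb level was the lowest of the 12. Its part in the differences below was not tested beyond leaving it out. In bulk tissue, fewer cells of a type and less RNA per cell cannot be told apart.

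Of 16190 autosomal genes tested, 347 (2.14%) differed between the sexes at an adjusted p under 0.05, which is what "called" means below. This 2.14% is the share to set beside the calls of each gene list. Males were higher for 177 genes (1.09%) and females for 170 (1.05%). The difference was 2-fold or more in 206 of these genes (1.27% of those tested), 108 of them higher in males. Differences of at least 16-fold were found for 16 genes in favour of males and 26 in favour of females. The 6 male and 6 female libraries did not overlap in 186 of the calls, 93 in each direction, where 1.79% of all tested genes were separated in this way, 0.939% with males above and 0.846% with females above. All differences are male minus female on the log2 scale, so positive values mean higher in males, and each is followed by its standard error (±) from the fit to all 12 libraries. Their median over all tested genes was -0.02. Called genes higher in males held 3.59% to 4.86% of all counts in male libraries and 1.16% to 1.45% in female libraries. Called genes higher in females held 1.31% to 1.52% in females and 0.49% to 0.789% in males. Without CD1 female 2, 464 genes were called (213 for males, 251 for females), and 323 of the 347 were among them.

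**Figure D1:**
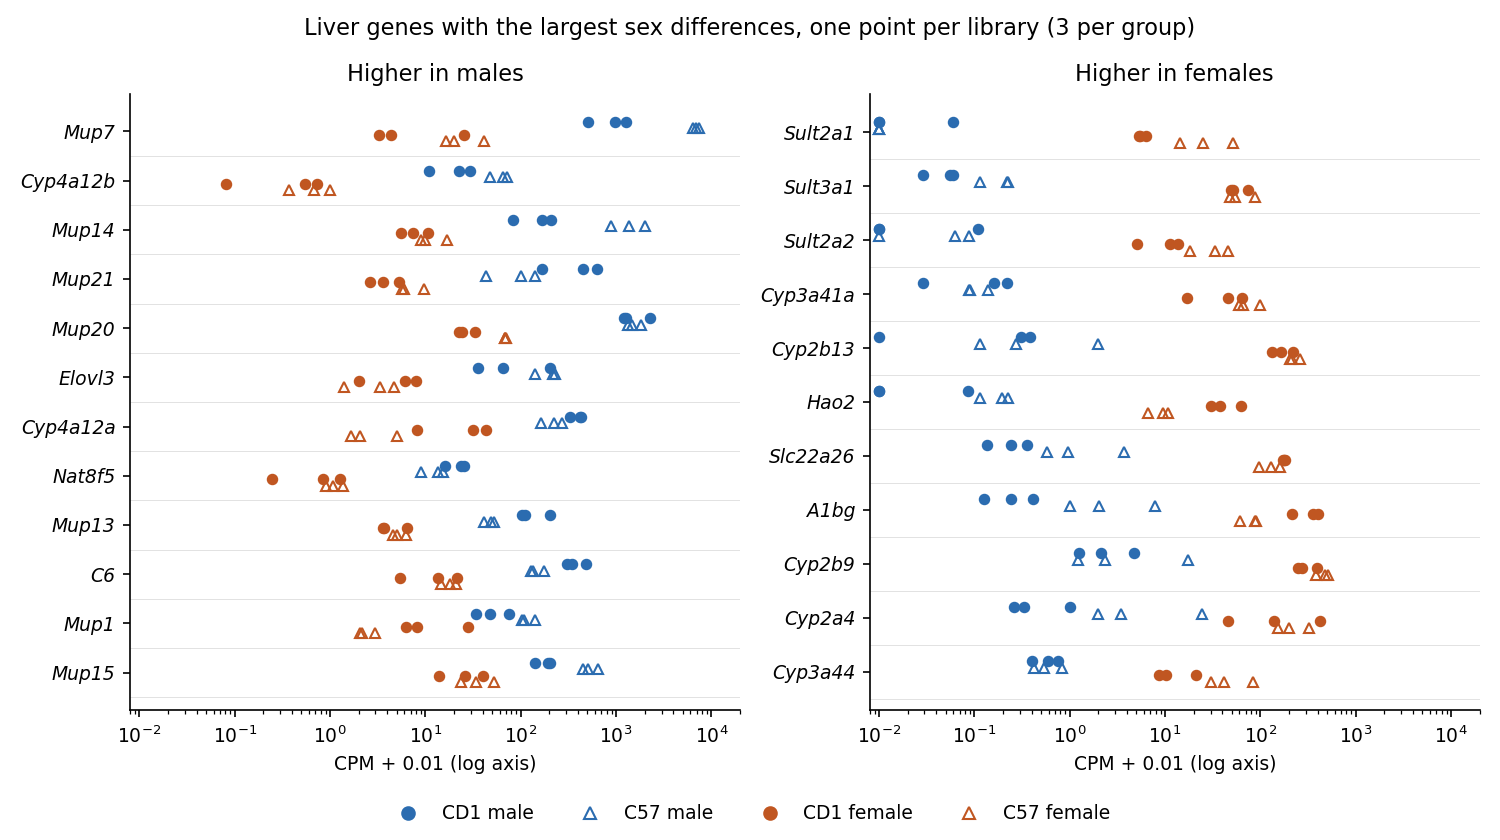
Levels of 23 genes with the largest differences, 12 higher in males and 11 higher in females, in CPM + 0.01 on a log axis, with 1 point for each of the 12 libraries (filled circles CD1, open triangles C57; blue males, orange females). No male point overlaps a female point for any of the 23 genes, which was a condition for choosing them.

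Major urinary protein genes were higher in males almost throughout. The table held 22 Mup genes, all tested, of which 19 were higher in males and none in females, with a median difference of 2.67 over the 22. Summed over the copies, Mup transcripts were 12784, 15816 and 13956 CPM in CD1 males against 3784, 2624 and 3483 CPM in the females. The C57 sums were 23042, 18958 and 19917 CPM in males and 4072, 3809 and 3163 CPM in females. Every male library exceeded every female library, by 4.30 times on average in CD1 and 5.61 times in C57. The 3 copies not called were Mup4, Mup5 and Mup10, at 0.99 ± 0.46, 0.28 ± 0.40 and 1.21 ± 0.53. Mup3 took the most counts of any copy in every library, 39.6% to 56.3% of the Mup sum in males and 59.3% to 88.9% in females, as the plot of Mup transcripts by library shows. It was at 6239 to 9799 CPM across males and 2066 to 3621 CPM across females, a difference of 1.45 ± 0.15 (adjusted p = 7.4e-05).

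**Figure D2:**
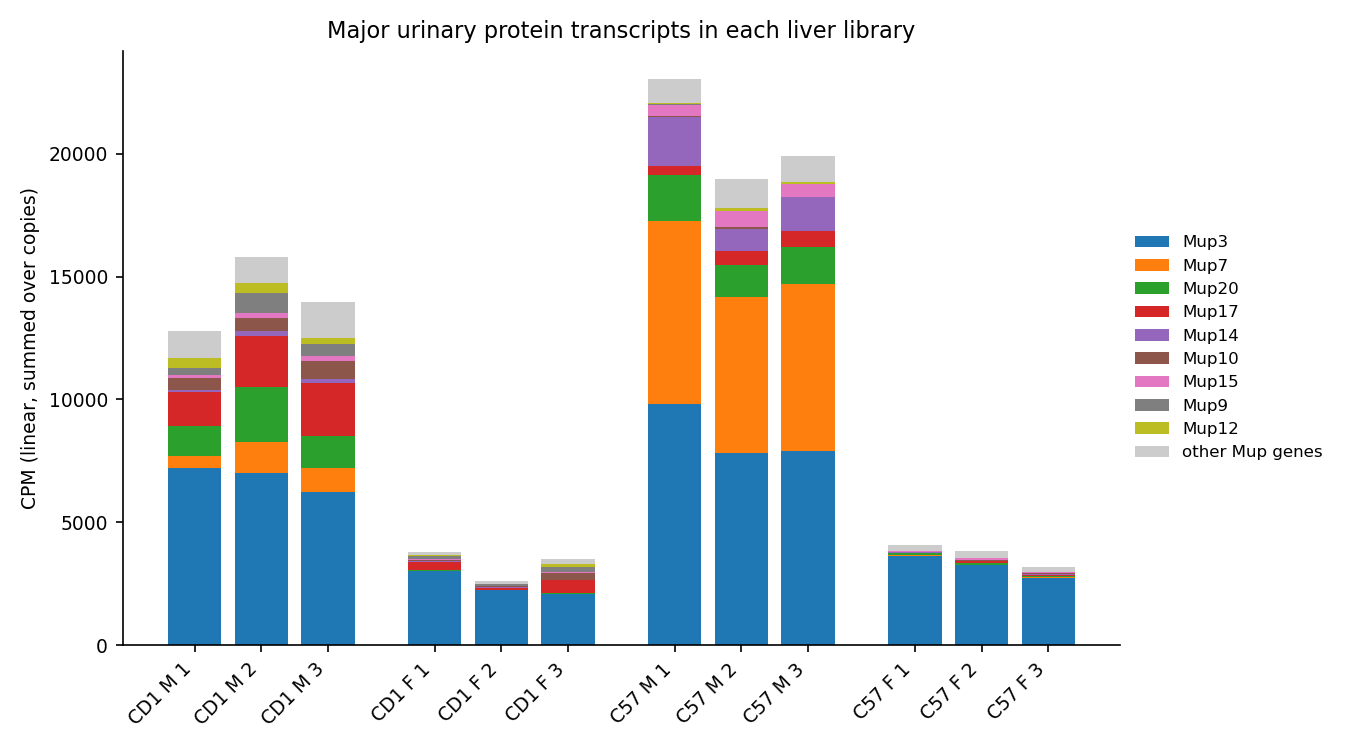
Major urinary protein transcripts in each liver library (M male, F female), in CPM on a linear axis, stacked by gene copy. Male bars reach 12784 to 23042 CPM and female bars 2624 to 4072 CPM, and Mup7 and Mup14 take a larger share in C57 males than in CD1 males.

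Mup7 was at 505, 1259 and 968 CPM in the CD1 males, and their female counterparts had 4.33, 3.25 and 25.7 CPM. The C57 values were 7484, 6348 and 6823 CPM for males and 41.6, 19.9 and 16.5 CPM for females. Females of both strains lay below all males, and C57 males lay above CD1 males. The difference was 7.21 ± 0.65 (adjusted p = 2.4e-05). Mup20, also known as darcin, a male scent protein, differed between the sexes in both strains. The CD1 males had Mup20 at 1226, 2246 and 1284 CPM and the CD1 females at 33.2, 22.5 and 24.2 CPM. Its level was 1832, 1324 and 1488 CPM in the C57 males and 67.96, 69.5 and 67.95 CPM in the C57 females. No male value overlapped a female one. Its difference was 5.20 ± 0.31 (adjusted p = 2.7e-07), with 5.89 ± 0.37 in CD1 and 4.49 ± 0.15 in C57. Copies were not alike between strains: Mup21 was 6.77 in CD1 and 3.74 in C57, and Mup1 was 1.85 and 5.61, although no Mup gene passed the test for a different sex effect in the strains. The call for Mup1 was lost without C57 female 1 (adjusted p = 0.057). Mup copies are nearly identical in sequence and the handling of reads that match several copies is not given in the sources used here, so the split of the sum between copies is uncertain.

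The likeness of Mup copies can be seen before their start sites. The 250 bases upstream of Mup7 (chr4:60070476-60070725) and Mup14 (chr4:61303999-61304248), both on the minus strand of GRCm38.p6, are shown from RefSeq because these were the copies with the 2 largest differences. Capitals mark ATCAAT, the letters of the core site of the factors HNF6 and CUX2, searched on both strands (ATCAAT or ATTGAT).
Mup7: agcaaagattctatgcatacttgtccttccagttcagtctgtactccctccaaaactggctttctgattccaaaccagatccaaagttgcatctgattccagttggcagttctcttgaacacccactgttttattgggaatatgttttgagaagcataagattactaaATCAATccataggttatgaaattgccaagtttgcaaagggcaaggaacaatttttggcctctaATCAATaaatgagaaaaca
Mup14: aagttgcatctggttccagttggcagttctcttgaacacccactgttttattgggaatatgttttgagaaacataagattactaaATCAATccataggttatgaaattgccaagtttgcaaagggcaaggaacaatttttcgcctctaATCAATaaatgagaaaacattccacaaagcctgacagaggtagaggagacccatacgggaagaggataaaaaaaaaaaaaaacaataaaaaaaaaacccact
Slid against each other by 83 bases, 164 of 167 shared positions were the same (98.2%). Each holds the motif at 2 places, starting at -82 and -19 from the annotated start of Mup7 and at -165 and -102 from that of Mup14. Whether the annotated starts are the ones used in these livers is not known from counts.

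Enzymes of fatty acid hydroxylation and elongation were among the metabolic genes higher in males. Cyp4a12a and Cyp4a12b encode omega-hydroxylases that make 20-HETE from arachidonic acid, and Elovl3 lengthens saturated and monounsaturated fatty acids. Levels of Cyp4a12a were 432, 326 and 418 CPM in the CD1 males and 43.4, 8.26 and 31.5 CPM in the CD1 females, while the C57 males had 221, 164 and 271 CPM and the C57 females 5.03, 1.64 and 2.04 CPM. CD1 females lay above all C57 females, and no female reached a male. The difference was 4.99 ± 0.57 (adjusted p = 0.00021), and 6.06 ± 0.41 (adjusted p = 1.5e-06) for Cyp4a12b. Of 15 Cyp4 genes tested, these 2 were higher in males and Cyp4f16 was higher in females at -0.82 ± 0.18 (adjusted p = 0.026), a call lost in 7 of the 12 fits without 1 library (highest adjusted p = 0.074, without C57 male 3). In CD1 mice, Elovl3 was at 203, 35.5 and 65.5 CPM in the 3 males and at 7.99, 2.02 and 6.05 CPM in the 3 females. In C57 mice it was at 221, 227 and 139.98 CPM in males and 3.36, 1.40 and 4.72 CPM in females. CD1 male 1 lay with the C57 males and the other CD1 males lay lower, still above all females. The difference was 5.08 ± 0.57 (adjusted p = 0.00017). Of 41 genes of fatty acid and triglyceride synthesis 2 (4.88%) were called, against 2.14% of all tested genes. They were Elovl3 and Fitm1, a lipid droplet protein, both higher in males (Fitm1 1.47 ± 0.22, adjusted p = 0.0023). Fasn, the fatty acid synthase, was at 0.18 ± 0.33 and Scd1, the main desaturase, at 0.34 ± 0.47, and neither was called.

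Steroid and bile acid enzymes higher in males included Cyp7b1, Hsd3b5, Cyp2d9 and Srd5a1. Cyp7b1 is the oxysterol 7-alpha-hydroxylase of the alternative bile acid pathway. Cyp7b1 was at 264, 434 and 582 CPM in the CD1 males, and their female counterparts had 30.5, 9.62 and 31.4 CPM. The C57 values were 149.95, 187 and 157 CPM for males and 36.3, 39.1 and 29.6 CPM for females. All males lay above all females, and CD1 males lay highest. Its difference was 3.20 ± 0.41 (adjusted p = 0.00058). Hsd3b5, a steroid ketoreductase of male mouse liver, was at 148 to 394 CPM across males and 9.15 to 36.97 CPM across females (difference 3.16 ± 0.30, adjusted p = 4.8e-05). Cyp2d9, a testosterone 16-alpha-hydroxylase, was at 1192 to 1809.6 CPM across males and 161 to 763 CPM across females (2.41 ± 0.33, adjusted p = 0.001). Srd5a1, the steroid 5-alpha-reductase, was at 76.8 to 150.2 CPM across males and 32.2 to 77.3 CPM across females (1.13 ± 0.19, adjusted p = 0.0047). Hsd3b1, the enzyme of steroid-making tissues, went the other way at a very low level, with 2 counts in 6 male libraries and 166 in 6 female ones, a ratio of 76.1 (95% counting interval 20.7 to 634). Of 17 steroid and bile acid P450 genes, Cyp7b1, Cyp2d9 and Cyp2d40 were higher in males and Cyp17a1 was higher in females, a call lost in 9 of the 12 fits without 1 library (highest adjusted p = 0.12, without C57 male 2). Cyp17a1 was at -3.15 ± 0.29 in C57 alone, with means of 6.69 CPM in males and 59.4 CPM in females. In CD1 alone it was at -0.68 ± 0.81 and not called, with means of 0.381 and 0.614 CPM. Its interaction was not called. The Cyp2d40 call was lost in 10 of the 12 fits without 1 library (highest adjusted p = 0.11, without CD1 female 1). Of 28 steroid dehydrogenases and reductases, Hsd3b5, Srd5a1 and Hsd3b1 were the calls. The ranges of Srd5a1 met at one point, where the lowest male lay just under the highest female.

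Of 33 genes of bile acid synthesis and transport 12.1% were called, against 2.14% of all tested genes. Cyp7b1, Scp2 and Slco1a1 were higher in males and Slco1a4 was higher in females. Scp2 encodes a sterol carrier protein and the peroxisomal thiolase that shortens the bile acid side chain. The CD1 males had Scp2 at 4331, 3918 and 5159 CPM and the CD1 females at 2432, 1612 and 2009.7 CPM. Its level was 4071, 4158 and 3841 CPM in the C57 males and 2079, 2127 and 1743 CPM in the C57 females. The lowest male lay above the highest female, and the strains had similar levels. The difference was 1.08 ± 0.14 (adjusted p = 0.00064). The 2 transporters of the same organic anion family moved in opposite directions: Slco1a1 was 0.90 ± 0.21 (adjusted p = 0.04) and Slco1a4 -1.53 ± 0.23 (adjusted p = 0.0021). The Slco1a1 call was lost in 8 of the 12 fits without 1 library (highest adjusted p = 0.083, without CD1 male 3). Cyp7a1, the rate-limiting enzyme of the classical pathway, was at -0.77 ± 0.47 and was not called. Over the 12 fits without 1 library the calls in this list numbered from 3 (in 8 fits, 1 of them without C57 female 1) to 8 (without CD1 female 2). These 8 calls were 4 for males and 4 for females.

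Conjugating enzymes split by class. Of 29 glutathione S-transferases, Gstp1 and Gstp2 were higher in males and Gstt3 was higher in females. Levels of Gstp1 were 1389, 1418 and 1601 CPM in the CD1 males and 162, 125 and 244 CPM in the CD1 females, while the C57 males had 1691, 1299 and 1394 CPM and the C57 females 229.8, 360.03 and 283 CPM. The groups did not overlap. The difference was 2.69 ± 0.21 (adjusted p = 6.3e-06). Gstp2 was at 4.46 to 6.32 CPM across males and 0.58 to 1.24 CPM across females, and its reads may be shared with the near-identical Gstp1. Gstp3, the third copy, was at 424 CPM in CD1 male 1 and at 538 and 714 CPM in CD1 females 1 and 2, against 11.6 to 18.1 CPM in the other 9 libraries, so it did not follow sex. Of 18 UDP-glucuronosyltransferases, Ugt2b35 (0.68 ± 0.10, adjusted p = 0.0015), Ugt2b5 (0.77 ± 0.15, adjusted p = 0.015) and Ugt2b1 (0.75 ± 0.15, adjusted p = 0.022) were higher in males. The Ugt2b1 call was lost in 3 of the 12 fits without 1 library (highest adjusted p = 0.058, without CD1 male 3). Without CD1 female 2, 7 members of this list were called, 4 for males and 3 for females, among them Ugt1a1, the bilirubin-conjugating enzyme.

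Cytosolic sulfotransferases went the other way. These enzymes add sulfate to steroids, bile acids and phenols from the donor PAPS. The list also holds Papss1 and Papss2, which make that donor. Of its 17 genes tested, 9 (52.9%) were higher in females, 8 sulfotransferases and Papss2, and none higher in males, and the median difference was -0.80. In CD1 mice, Sult3a1 was at 0.0192, 0.0461 and 0.05 CPM in the 3 males and at 74.1, 51.5 and 49.6 CPM in the 3 females. In C57 mice it was at 0.209, 0.213 and 0.104 CPM in males and 54.6, 88.6 and 48.6 CPM in females. The highest male, C57 male 2, lay far below the lowest female, C57 female 3. The difference was -9.21 ± 0.34 (adjusted p = 2e-09), the smallest p of all autosomal genes. Sult2a1, a hydroxysteroid and bile acid sulfotransferase, had 2 counts in the 6 male libraries together and 4715 in the 6 female ones. Scaled to library size, that is a ratio of 2162, with a 95% interval from counting alone of 598 to 17859. Sult2a1 was at 0, 0 and 0.05 CPM in the CD1 males, and their female counterparts had 5.34, 6.28 and 5.51 CPM. The C57 values were 0, 0 and 0 CPM for males and 14.4, 51.9 and 24.9 CPM for females. C57 females were above CD1 females. Even counts outnumbered odd ones among low counts by 1.73 to 1, so 2 counts may stand for 1 fragment and such intervals may be too narrow. Sult2a6 and Sult3a2 had no count in any male library and were at least 147-fold and at least 376-fold higher in females, taking 3 counts over the 6 male libraries as the floor. Sult2a2 (-8.98 ± 0.54) and Sult2a5 (-8.00 ± 0.63) were also higher in females. The copy with the most counts, Sult2a8, was at 417 to 648 CPM across males and 368 to 487 CPM across females and was not called (0.41 ± 0.12, adjusted p = 0.098), so the Sult2a family sum differed little: males had 1.16 times the female level in CD1 and 1.22 times in C57. Papss2 was higher in females at -0.80 ± 0.16 (adjusted p = 0.02), and Sult1d1 and Sult1a1 at -0.77 ± 0.13 and -0.89 ± 0.19. Among fits without 1 library, calls were lost for Papss2 in 3 (up to 0.054, without CD1 male 3) and Sult1a1 in 5 (up to 0.064, without CD1 male 3).

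The sequence upstream of Sult3a1 (chr10:33857472-33857721, plus strand, GRCm38.p6) is shown from RefSeq beside that of Slc22a26 (chr19:7802668-7802917, minus strand), an organic anion transporter with a like pattern, because both hold each of the motifs that were searched. Capitals mark TTCNNNGAA, the core letters of a STAT5 site, which read the same on both strands, and ATCAAT or ATTGAT.
Sult3a1: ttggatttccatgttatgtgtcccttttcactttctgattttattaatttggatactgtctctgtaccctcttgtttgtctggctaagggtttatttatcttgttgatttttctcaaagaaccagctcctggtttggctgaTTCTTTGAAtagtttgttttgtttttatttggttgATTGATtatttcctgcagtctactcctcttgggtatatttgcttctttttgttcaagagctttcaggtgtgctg
Slc22a26: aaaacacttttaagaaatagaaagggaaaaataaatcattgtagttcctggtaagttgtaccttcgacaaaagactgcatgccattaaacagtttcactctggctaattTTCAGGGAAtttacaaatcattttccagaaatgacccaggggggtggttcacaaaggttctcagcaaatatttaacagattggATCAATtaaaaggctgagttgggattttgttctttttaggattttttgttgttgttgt
In Sult3a1 the STAT5-type letters start at -109 and ATTGAT at -74, and in Slc22a26 they start at -141 and ATCAAT at -58. A match of letters is a description and does not show binding. The CD1 males had Slc22a26 at 0.231, 0.346 and 0.125 CPM and the CD1 females at 177, 182 and 172 CPM. Its level was 0.574, 3.71 and 0.939 CPM in the C57 males and 161, 128 and 96.4 CPM in the C57 females. C57 male 2 was the highest male and still below every female.

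Xenobiotic P450 genes of the Cyp1, Cyp2 and Cyp3 families were called in 18 of 40 cases, 16 for females and 2 for males. Cyp2b9 and Cyp2b13 encode near-identical steroid and drug hydroxylases. Levels of Cyp2b9 were 4.68, 1.25 and 2.10 CPM in the CD1 males and 273, 388 and 245 CPM in the CD1 females, while the C57 males had 1.23, 17.3 and 2.32 CPM and the C57 females 476, 516 and 381 CPM. Females of both strains lay above all males, and C57 male 2 was the highest male. The difference was -6.42 ± 0.63 (adjusted p = 5.7e-05), and -8.79 ± 0.66 (adjusted p = 4.6e-06) for Cyp2b13. Cyp2b10, the inducible copy, was at -1.16 ± 0.31 (adjusted p = 0.076) and was not called, though without CD1 female 2 it was, at -1.34 ± 0.27 (adjusted p = 0.019). Cyp3a41a, Cyp3a41b and Cyp3a44 were at -8.98 ± 0.45, -5.50 ± 0.34 and -5.52 ± 0.45. The Cyp3a family sum differed by less than the spread between libraries, at 5974 and 5793 CPM in CD1 males and females and 5221 and 5285 CPM in C57, so the female copies were a small part of it. Cyp2a4, a steroid 15-alpha-hydroxylase, was at 0.25 to 24.6 CPM across males and 45.7 to 418 CPM across females (-6.28 ± 1.03, adjusted p = 0.0046), and its close copy Cyp2a5 was not called (0.09 ± 0.50).

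The promoters of the 2 Cyp2b genes were nearly the same over 250 bases (248 identical, 99.2%). They are shown on the plus strand of GRCm38.p6, chr7:26173159-26173408 for Cyp2b9 and chr7:26061245-26061494 for Cyp2b13, as a pair that moved together and held neither motif.
Cyp2b9: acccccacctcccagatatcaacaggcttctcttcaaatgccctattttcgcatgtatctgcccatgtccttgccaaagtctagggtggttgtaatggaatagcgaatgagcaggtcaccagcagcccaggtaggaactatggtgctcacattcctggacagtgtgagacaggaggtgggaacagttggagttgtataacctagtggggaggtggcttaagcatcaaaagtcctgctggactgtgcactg
Cyp2b13: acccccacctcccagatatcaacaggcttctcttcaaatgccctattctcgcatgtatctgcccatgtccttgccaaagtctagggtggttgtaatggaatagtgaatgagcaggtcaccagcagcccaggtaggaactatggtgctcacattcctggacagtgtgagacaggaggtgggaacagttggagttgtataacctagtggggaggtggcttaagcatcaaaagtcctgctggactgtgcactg
The absence of these letters from this window says nothing of the factors. Over all tested autosomal genes, 12131 had a RefSeq promoter, of which 7.5% held TTCNNNGAA and 5.45% held ATCAAT or ATTGAT, and 1 held overlapping matches. Among genes higher in males 131 had one, of which 13 (9.92%) held the first and 22 (16.8%) the second motif. Without Mup genes, whose promoters are copies of one another, the second share was 8.47%. Among genes higher in females 128 had one, of which 11 (8.59%) held the first and 15 (11.7%) the second motif. Copies were not left out of this female set. It includes Cyp3a41a and Cyp3a44, whose promoters were 94.4% identical and both held ATCAAT at -71. The female share thus does not compare with the male share without Mup genes.

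The Cyp2c cluster, enzymes that oxidise arachidonic acid, steroids and drugs, held both directions side by side. Of 11 tested genes between the listed exons at 39217698 and 40078311 on chromosome 19 (GRCm39), 10 were called. The limits of this stretch were themselves called genes. Over the whole Cyp2c family without the pseudogene, 15 genes were tested, 1 called for males and 8 for females. Cyp2c67 and the pseudogene Cyp2c53-ps were higher in males and 8 genes in females. Calls were lost for Cyp2c53-ps in 10 (up to 0.11, without CD1 female 1), Cyp2c50 in 10 (up to 0.11, without CD1 male 1) and Cyp2c68 in 10 (up to 0.12, without C57 male 3) of the 12 fits without 1 library. In CD1 mice, Cyp2c67 was at 548, 422 and 577 CPM in the 3 males and at 145, 97.7 and 133 CPM in the 3 females. In C57 mice it was at 212, 257 and 248 CPM in males and 122, 118 and 131 CPM in females. The sexes did not overlap, and the difference was 1.49 ± 0.20 (adjusted p = 0.00084). Cyp2c39 was higher in females within each strain but at unlike levels. Cyp2c39 was at 70.02, 126 and 77.8 CPM in the CD1 males, and their female counterparts had 592, 547 and 575 CPM. The C57 values were 3.60, 3.9996 and 2.45 CPM for males and 11.2, 15.5 and 10.9 CPM for females. CD1 males exceeded C57 females, so the 6 libraries of each sex overlapped, while within each strain they did not. Its difference was -2.29 ± 0.21 (adjusted p = 2.2e-05). Cyp2c37, Cyp2c38, Cyp2c54 and Cyp2c69 were at -2.15 ± 0.29, -1.55 ± 0.27, -1.19 ± 0.22 and -5.10 ± 0.97. Cyp2c29, a highly expressed member, was at 1327 to 2301 CPM across males and 966 to 2422 CPM across females and was not called.

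Flavin monooxygenases oxidise nitrogen and sulfur atoms of foods and drugs. Fmo2 was at 4.83 to 13.6 CPM across males and 22.5 to 38.1 CPM across females. The difference was -2.05 ± 0.24 (adjusted p = 0.00022). Fmo1 (-0.78 ± 0.15, adjusted p = 0.017) and Fmo4 (-0.93 ± 0.19, adjusted p = 0.022) were also higher in females. Aox3, the aldehyde oxidase of mouse liver, was higher in males at 1.29 ± 0.23 (adjusted p = 0.009). Calls were lost for Fmo1 in 2 (up to 0.054, without C57 male 3) and Fmo4 in 3 (up to 0.066, without C57 female 1) of the 12 fits without 1 library.

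Fatty acid oxidation showed calls mainly in genes of peroxisomes and acyl-CoA hydrolysis. Of 51 genes of oxidation and ketogenesis, 5 were higher in females and 2 in males, with a median difference of 0.11. Hao2, a peroxisomal 2-hydroxyacid oxidase, had the largest difference. The CD1 males had Hao2 at 0, 0 and 0.075 CPM and the CD1 females at 62.9, 30.5 and 37.5 CPM. Its level was 0.183, 0.213 and 0.104 CPM in the C57 males and 10.7, 9.47 and 6.58 CPM in the C57 females. CD1 females lay above C57 females, and all 6 males lay below every female. The difference was -7.90 ± 0.65 (adjusted p = 9.6e-06). Abcd2, which brings very long chain acyl-CoA into peroxisomes, was at 2.37 to 17.99 CPM across males and 39.5 to 55.96 CPM across females (-2.77 ± 0.38, adjusted p = 0.00099). The acyl-CoA thioesterases Acot3, Acot4 and Acot2 were at -3.46 ± 0.55, -1.22 ± 0.25 and -0.79 ± 0.19, and the Acot2 call was lost in 10 of the 12 fits without 1 library (highest adjusted p = 0.12, without CD1 male 1). Nudt7, a peroxisomal coenzyme A hydrolase, was higher in males at 1.02 ± 0.18 (adjusted p = 0.0073), as was Bdh2, an enzyme of ketone and siderophore metabolism, at 0.68 ± 0.16 (adjusted p = 0.04). The Acot4 call was lost in 3 of the 12 fits without 1 library (highest adjusted p = 0.053, without C57 male 1), and the Bdh2 call in 11 of the 12 fits without 1 library (highest adjusted p = 0.095, without CD1 male 1). Without CD1 female 2 the list held 7 calls for females and 1 for males.

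Other metabolic genes higher in females were spread over several lists. In 3 of these lists the share called was near the 2.14% of all tested genes: lipoproteins (2.5%), amino acid breakdown (1.75%) and iron (3.03%). The retinol dehydrogenases Rdh9 (-1.29 ± 0.17, adjusted p = 0.0009) and Rdh16f2 (-1.51 ± 0.31, adjusted p = 0.02) were higher in females. Vldlr, the VLDL receptor, was the 1 call among 40 lipoprotein and lipid uptake genes. It was at 1.93 to 2.96 CPM across males and 7.51 to 19.1 CPM across females, with no overlap, a difference of -2.16 ± 0.19 (adjusted p = 2e-05). Mat1a, the liver's S-adenosylmethionine synthase, was higher in females at -0.73 ± 0.13 (adjusted p = 0.01), and Mthfd2 was higher in males at 0.87 ± 0.18 (adjusted p = 0.023), among 31 one-carbon genes. Gstt3 was -1.02 ± 0.18 (adjusted p = 0.0063). A1bg, a secreted plasma glycoprotein, was at 0.115 to 7.81 CPM across males and 61.8 to 399.5 CPM across females, a difference of -6.91 ± 1.09 (adjusted p = 0.0032). Oat, the ornithine aminotransferase of pericentral hepatocytes, was the 1 call among 57 genes of amino acid breakdown and the urea cycle, and it was lost in 9 of the 12 fits without 1 library (highest adjusted p = 0.094, without C57 male 1). Hamp2, a paralogue of hepcidin, was the 1 call among 33 genes of iron, haem and metals, and it was lost in 11 of the 12 fits without 1 library (highest adjusted p = 0.11, without CD1 male 3). Of 18 carboxylesterases, Ces1b was higher in females (-0.84 ± 0.17, adjusted p = 0.021) and Ces4a in males (2.16 ± 0.50, adjusted p = 0.041). Further calls were lost for Rdh16f2 in 2 (up to 0.058, without CD1 male 1), Mthfd2 in 3 (up to 0.064, without C57 female 1), Ces1b in 4 (up to 0.058, without C57 female 2) and Ces4a in 9 (up to 0.097, without C57 male 1) of the 12 fits without 1 library. Without CD1 female 2 the carboxylesterases held 3 calls for females and 1 for males, and the lipoprotein list 3 for females.

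**Figure D3:**
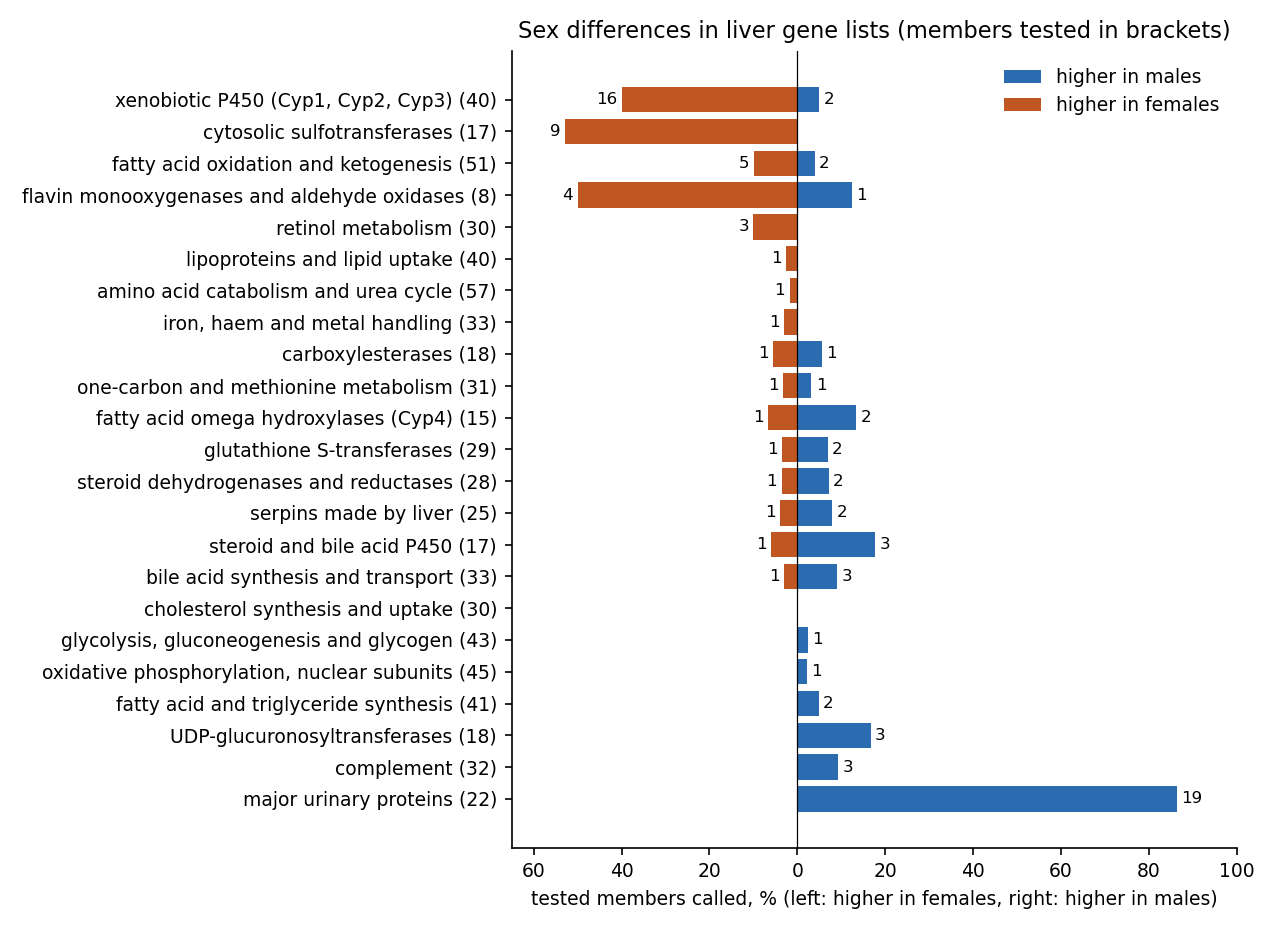
Share of the tested members of each metabolic and secreted-protein list called higher in females (left, orange) or higher in males (right, blue), with the number called beside each bar and the number tested in brackets. The sulfotransferase list, whose 9 calls include Papss2, and the xenobiotic P450 genes, with 16 calls, reach to the left, and 19 of the 22 Mup genes reach to the right.

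Together the 20 metabolic lists held 606 distinct tested genes, of which 25 were higher in males and 47 in females, or 11.9% called against 2.14% of all tested genes. The lists were chosen with earlier results of these data known and hold families of near-identical copies. The 2 shares are thus a description and do not measure an excess among metabolic genes. In the lists of central pathways few genes or none were called. Of 43 genes of glycolysis, gluconeogenesis and glycogen, Gys2, the liver glycogen synthase, was called (0.67 ± 0.15, adjusted p = 0.039), and the call was lost in 9 of the 12 fits without 1 library (highest adjusted p = 0.089, without CD1 male 3). None of 30 cholesterol genes was called. Their median was -0.17 over both strains, 0.02 in CD1 and -0.33 in C57. CD1 female 2 had low cholesterol genes: Sqle was 9.48 CPM in it against 56.2 and 93.9 CPM in the other CD1 females. Without it the median of the list was -0.30. Of 45 nuclear subunits of oxidative phosphorylation Cycs, cytochrome c, was called (0.56 ± 0.11, adjusted p = 0.014), but all 45 differences were positive, with a median of 0.24, where 47.8% of all tested genes were positive. The number positive was 37 of 45 in CD1 alone and 45 of 45 in C57 alone, and their medians were 0.20 and 0.23. Without CD1 female 2 all 45 were positive with a median of 0.16.

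Among proteins that the liver secretes, 3 complement genes and 2 protease inhibitor genes were higher in males. C6 and C9 encode parts of the membrane attack complex. Levels of C6 were 303, 479 and 344 CPM in the CD1 males and 21.6, 5.46 and 13.5 CPM in the CD1 females, while the C57 males had 133, 129 and 174 CPM and the C57 females 20.9, 14.7 and 17.96 CPM. Males of both strains lay above all females, with CD1 males highest. The difference was 3.91 ± 0.40 (adjusted p = 6.6e-05). C9 was at 402 to 1448 CPM across males and 191 to 416 CPM across females, a difference of 1.54 ± 0.18 (adjusted p = 0.00028), and the sexes overlapped slightly. Of 32 complement genes 3 were called, all higher in males, with C2 the third, a call lost in 9 of the 12 fits without 1 library (highest adjusted p = 0.11, without CD1 female 3). Over the 12 fits without 1 library the calls in this list numbered from 2 (in 7 fits, 1 of them without C57 female 1) to 7 (without CD1 female 2). The 7 comprised 5 calls for males and 2 for females, C3 (-0.55 ± 0.12) and Mbl2 (-0.60 ± 0.13). Serpina12, the adipokine vaspin, was at 11.7 to 72.4 CPM across males and 1.72 to 8.31 CPM across females (2.98 ± 0.41, adjusted p = 0.001). Serpina1e, an alpha-1-antitrypsin copy, was 9318, 9044 and 7812 CPM in C57 males and 1568, 1533 and 1357 CPM in C57 females but 219.9, 243 and 214 CPM in CD1 males and 142, 59.6 and 192 CPM in their females. The strains thus lay further apart than the sexes in these counts. Serpina1e is 1 of 6 Serpina1 genes, between which reads may be shared, so the level of this copy in each strain is uncertain. The Serpina1e call was lost in 3 of the 12 fits without 1 library (highest adjusted p = 0.073, without C57 female 1). Serpina6, which carries corticosteroids in plasma, was higher in females at -0.87 ± 0.20 (adjusted p = 0.041), a call lost in 8 of the 12 fits without 1 library (highest adjusted p = 0.12, without C57 female 1). Nat8f5, an acetyltransferase of the Nat8 cluster on chromosome 6, was at 8.90 to 25.5 CPM across males and 0.235 to 1.36 CPM across females (4.14 ± 0.36, adjusted p = 1.6e-05), and its neighbours Nat8 and Nat8f6 were also higher in males.

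Genes of the growth hormone, STAT5 and sex hormone axis were called in 8 of 49 cases, 5 higher in females and 3 in males. That is 16.3%, against 2.14% of all tested genes. Prlr, the prolactin receptor, had the smallest p. In CD1 mice, Prlr was at 75.6, 58.8 and 57.8 CPM in the 3 males and at 349, 452 and 318 CPM in the 3 females. In C57 mice it was at 90.95, 132 and 102 CPM in males and 249, 234 and 243 CPM in females. No male reached a female. The difference was -1.85 ± 0.24 (adjusted p = 0.00063). Cux2, a homeobox repressor known from female liver, was also higher in females. Cux2 was at 0.5, 0.876 and 0.3 CPM in the CD1 males, and their female counterparts had 2.81, 36.03 and 4.87 CPM. The C57 values were 0.418, 0.72 and 0.521 CPM for males and 6.35, 2.61 and 5.96 CPM for females. CD1 female 2 lay above the other 5 females, and all females lay above all males. The difference was -3.96 ± 0.64 (adjusted p = 0.004), and -2.99 ± 0.33 without CD1 female 2. Trim24 (-1.50 ± 0.29, adjusted p = 0.015), a nuclear receptor cofactor, Esr1 (-0.87 ± 0.18, adjusted p = 0.024), the estrogen receptor, and Tox (-1.70 ± 0.26, adjusted p = 0.0029), an HMG box factor, were also higher in females. The Esr1 call was lost in 5 of the 12 fits without 1 library (highest adjusted p = 0.072, without C57 male 1). Over the 12 fits without 1 library the calls in this list numbered from 5 (in 2 fits, 1 of them without C57 female 2) to 10 (without CD1 male 3).

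Bcl6, a repressor known from male liver, was among the genes higher in males. The CD1 males had Bcl6 at 85.97, 28.7 and 34.9 CPM and the CD1 females at 16.1, 39.7 and 19.1 CPM. Its level was 93.3, 57.8 and 86.7 CPM in the C57 males and 20.99, 20.2 and 30.5 CPM in the C57 females. CD1 male 1 and the C57 males were high, and CD1 males 2 and 3 lay within the female range. The difference was 1.36 ± 0.31 (adjusted p = 0.034), and the call was lost in 8 of the 12 fits without 1 library (highest adjusted p = 0.11, without CD1 male 1). Nox4, an NADPH oxidase, was at 15.5 to 27.9 CPM across males and 1.25 to 8.41 CPM across females (2.68 ± 0.37, adjusted p = 0.00094). Egfr, the epidermal growth factor receptor, was at 469.9 to 667 CPM across males and 205 to 438 CPM across females (0.80 ± 0.18, adjusted p = 0.032), a call lost in 7 of the 12 fits without 1 library (highest adjusted p = 0.074, without CD1 female 3). The receptor and the factor themselves were not called: Ghr was at 0.10 ± 0.13, Stat5b at -0.07 ± 0.12 and Hnf4a at 0.02 ± 0.12. Socs2, a STAT5 target, was at -1.49 ± 0.37 (adjusted p = 0.055) and Igf1 at -0.47 ± 0.17 (adjusted p = 0.21). None of 19 clock genes was called. The smallest p there was that of Bhlhe41, at 1.90 ± 0.48 (adjusted p = 0.063). Bhlhe41 was called in 3 of the 12 fits without 1 library, without CD1 female 2 (adjusted p = 0.018), CD1 male 1 (adjusted p = 0.029) or C57 male 2 (adjusted p = 0.046), and also with DESeq2 (adjusted p = 0.0011) and with no filter on low counts (adjusted p = 0.0067).

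Marker genes of the cell types that liver tissue can hold were mostly not called. None of 10 hepatocyte, 14 periportal, 11 Kupffer cell, 12 sinusoidal endothelial, 9 cholangiocyte, 5 erythroid, 8 adipocyte and 12 proliferation markers was called, while 2 of 14 pericentral markers (Lect2 and Oat) and 2 of 12 stellate and fibroblast markers (Colec10 and Pdgfrb) were higher in females and 1 of 14 lymphocyte markers (Cd4) was higher in males. These 5 calls were each lost in fits without 1 library: Lect2 in 10 (up to 0.099, without CD1 male 1), Oat in 9 (up to 0.094, without C57 male 1), Colec10 in 7 (up to 0.075, without C57 female 1), Pdgfrb in 7 (up to 0.083, without C57 female 1) and Cd4 in 2 (up to 0.052, without C57 female 1). Without CD1 female 2, the hepatocyte marker Alb (-0.61 ± 0.14, adjusted p = 0.033) was called for females and the periportal marker Cyp2f2 (0.66 ± 0.13, adjusted p = 0.017) for males. In that fit the pericentral marker Rhbg (-0.58 ± 0.13, adjusted p = 0.030) and the fibroblast marker Col1a2 (-0.65 ± 0.13, adjusted p = 0.018) were also called for females. All 12 stellate and fibroblast markers had negative differences, with a median of -0.57, and their sum was 134 to 307 CPM across males and 267 to 409 CPM across females. Hepatocyte markers summed to 82988 to 111680.000000 CPM across males and 66851 to 141564 CPM across females, where the lowest was CD1 female 2. The part of such shifts in the differences above was not tested.

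Genes of pancreatic acinar cells were called more often. Of 14 acinar genes tested, 8 were higher in males and none in females, with a median of 0.86. Over the 12 fits without 1 library the calls in this list numbered from 3 (in 3 fits, 1 of them without C57 female 1) to 13 (without CD1 male 3). Ctrb1, chymotrypsinogen, is an example. Levels of Ctrb1 were 797, 614 and 412 CPM in the CD1 males and 349, 401 and 373 CPM in the CD1 females, while the C57 males had 455, 739 and 635 CPM and the C57 females 265, 304 and 239 CPM. The lowest male was above the highest female by a small margin. The difference was 0.94 ± 0.18 (adjusted p = 0.013), and Pnliprp1 and Cela3b were at 1.03 ± 0.16 and 1.03 ± 0.18. The acinar genes summed to 1821 to 3728 CPM in male and 1266 to 1893 CPM in female liver libraries. Their liver levels were low against the pancreas of the same animals, at 0.429% for Ctrb1 and 0.452% for Pnliprp1. Altogether 24 called genes, 23 of them higher in males, had a liver mean under 3% of their mean in another tissue, as had 5.86% of all tested genes. Without them 323 genes were called, 154 higher in males and 169 in females. Salivary secretory genes summed to 4109 to 9374 CPM in male and 3568 to 6905 CPM in female libraries. The source of these transcripts in liver libraries was not tested.

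Part of the called genes lay in runs. Of the 323 called genes with a liver level of at least 3% of every other tissue, 96 (29.7%) fell in 20 runs of 3 or more called genes with at most 500 kb between neighbours. The Mup run on chromosome 4 (listed exons from 60066469 to 62066214, GRCm39) held 20 called genes, among them LOC118567368 and the pseudogene Mup-ps15, all higher in males, among 25 tested. Runs of a single direction, with tested genes counted within their limits, were also found for Sult2a on chromosome 7 (4 of 4, females) and Cyp3a on chromosome 5 (4 of 4, females). Others were Cyp2b and Cyp2a4 on chromosome 7 (4 of 4, females) and Nat8 on chromosome 6 (3 of 3, males). The limits of a run were called genes, so uncalled neighbours outside were not counted. Over whole families the calls were 4 of 6 tested Sult2a, 4 of 8 Cyp3a, 2 of 3 Cyp2b and 3 of 7 Nat8 genes, and Cyp2a5 was not called. The Acot run on chromosome 12 held 3 of 5 tested genes, all higher in females. Mixed runs included Hsd3b5, Hsd3b1 and Hao2 on chromosome 3, with 1 gene higher in males and 2 in females. Some runs were sparse, such as 4 called among 47 tested genes on chromosome 17 and 5 among 16 on chromosome 11. How many runs an equal number of other tested genes would form was not tested. Copies in such runs share sequence, and so may share reads.

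The strains were then fitted apart, which gives estimates that share no library. In CD1 alone 88 of 15406 autosomal genes were called (0.571%), 39 for males (0.253%) and 49 for females (0.318%). In C57 alone 324 of 14818 were called (2.19%), 159 for males (1.07%) and 165 for females (1.11%). Of 84 CD1 calls also tested in C57, 81 (96.4%; 95% interval from the exact binomial 89.9 to 99.3) had the same direction there and 62 were called there too in that direction. Of 318 C57 calls tested in CD1, 271 (85.2%; 80.8 to 88.9) had the same direction and 62 (19.5%) were called too. The same direction was seen for 56.4% of the 14483 genes tested in both. The intervals count genes as independent, though the genes come from the same animals and include near-identical copies, so they may be too narrow. Leaving out 1 library gave shares of 89.1% to 98.2% for CD1 calls and 81.2% to 93.5% for C57 calls, partly outside the intervals. Across the 84 CD1 calls the median size was 3.16 in CD1 and 2.15 in C57, and across the 318 C57 calls it was 1.25 in C57 and 0.80 in CD1. As a description over genes, which are not independent replicates, Pearson's r between the strains was 0.886 over CD1 calls and 0.859 over C57 calls, against 0.473 over all genes.

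The count of CD1 calls was 56 without CD1 female 1, 53 without CD1 male 2 and 52 without CD1 male 3. The C57 count was 157 without C57 female 1 and 189 without C57 male 1. Counts of calls in strains with unlike spread between animals do not compare the strength of the sex difference, which the interaction tests.

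**Figure D4:**
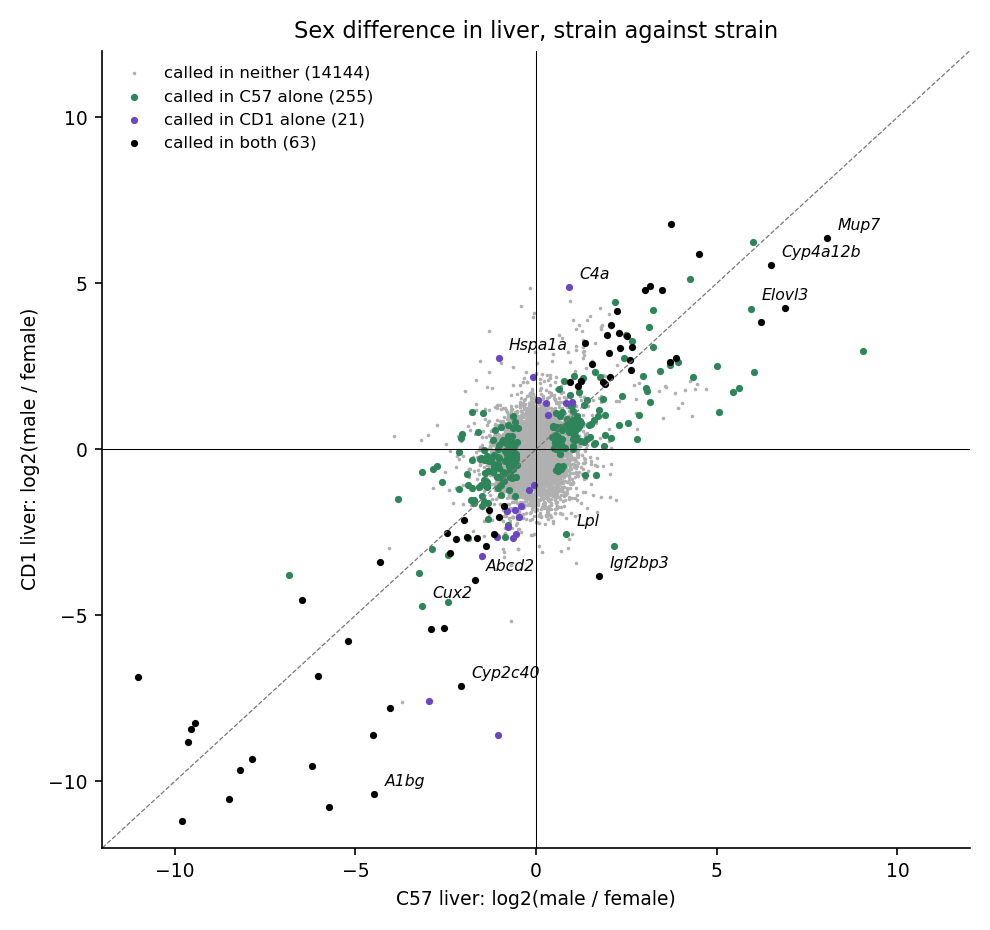
Sex difference in C57 liver (x axis) against CD1 liver (y axis), each as log2(male / female) from 6 libraries, for the 14483 autosomal genes tested in both. Points called in both strains (black, 63) have the same sign in both strains with 1 exception, Igf2bp3. Sult2a1, called in both at -8.34 in CD1 and -13.28 in C57, lies beyond the drawn axes.

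Metabolic genes of the largest differences held in both strains. Sult3a1 was -10.53 ± 0.36 in CD1 and -8.49 ± 0.35 in C57, Cyp2b13 was -9.66 ± 0.79 in CD1 and -8.18 ± 0.72 in C57, and Cyp3a41a was -8.42 ± 0.73 in CD1 and -9.56 ± 0.31 in C57. Among genes higher in males, Gstp1 was 3.05 ± 0.29 in CD1 and 2.33 ± 0.18 in C57 and Cyp7b1 was 4.16 ± 0.52 in CD1 and 2.23 ± 0.14 in C57. Each of these 5 was called in both strains alone. Elovl3 was 4.24 ± 0.76 in CD1 and 5.95 ± 0.42 in C57 and was called in C57 but not in CD1 (adjusted p = 0.068), and Cyp2d9, at 1.76 ± 0.48 in CD1 and 3.06 ± 0.12 in C57, likewise (adjusted p in CD1 = 0.26). Neither had a called interaction, so a difference between strains was not shown for them. Of the 49 genes called in at least 1 strain with the opposite sign in the other, 47 were called in C57 and 3 in CD1, and the median size in the strain without the call was 0.39. They included Gstm3 (-0.77 ± 0.44 in CD1 and 1.66 ± 0.22 in C57), Alas1, the first enzyme of haem synthesis (0.35 ± 0.80 in CD1 and -2.08 ± 0.33 in C57), and Nr1i3, the xenobiotic receptor CAR (0.29 ± 0.43 in CD1 and -0.92 ± 0.15 in C57). The interaction was called for 3 of the 49.

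Whether the sex difference itself differed between the strains was tested for each gene, as the difference in CD1 minus that in C57. Of 16190 autosomal genes 8 were called (0.0494%), and 1378 were at an unadjusted p under 0.05. The male minus female difference was larger in CD1 for 2 of the 8 (0.0124%) and smaller for 6 (0.0371%). Cyp2c40, an arachidonate hydroxylase of the Cyp2c cluster, was among them. In CD1 mice, Cyp2c40 was at 1.37, 3.53 and 3.52 CPM in the 3 males and at 465, 237 and 469 CPM in the 3 females. In C57 mice it was at 75.2, 155 and 41.2 CPM in males and 392, 277 and 475 CPM in females. The females had similar levels in both strains, and the CD1 males lay below the C57 males. Its difference over both strains was -4.53 ± 0.97 (adjusted p = 0.027), a call lost in 4 of the 12 fits without 1 library (highest adjusted p = 0.083, without CD1 male 3). The interaction was -5.05 ± 0.69 (adjusted p = 0.036). A1bg was also lowest in CD1 males, at 0.115, 0.231 and 0.4 CPM, against 2.01, 7.81 and 0.991 CPM in C57 males. Unlike Cyp2c40, its females also differed by strain, at 358, 214 and 399.5 CPM in CD1 and 88.8, 89.0 and 61.8 CPM in C57. The A1bg interaction was -5.91 ± 0.90 (adjusted p = 0.044). Abcd2 was 3.98, 2.54 and 2.37 CPM in CD1 males and 17.99, 12.2 and 9.93 CPM in C57 males, with females at 39.5 to 56.0 CPM in CD1 and 41.7 to 44.7 CPM in C57, and its interaction was -2.25 ± 0.34 (adjusted p = 0.044).

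Lpl, the lipoprotein lipase, differed in sign. Lpl was at 71.2, 22.1 and 26.5 CPM in the CD1 males, and their female counterparts had 213, 198 and 294 CPM. The C57 values were 40.2, 29.4 and 31.1 CPM for males and 17.6, 20.9 and 17.5 CPM for females. It was high in CD1 females alone, while in C57 males lay above females. The interaction was -3.40 ± 0.51 (adjusted p = 0.044). Hspa1a, a stress-induced chaperone, was 15.7, 38.4 and 21.4 CPM in CD1 males and 2.60, 3.79 and 4.79 CPM in their females, with all 6 C57 libraries at 0.365 to 0.998 CPM, and its interaction was 3.79 ± 0.54 (adjusted p = 0.044). C4a, a complement gene also known as the sex-limited protein, had 514, 289 and 647 CPM in CD1 males and 17.2, 12.4 and 19.3 CPM in their females, against 9.27, 9.89 and 20.4 CPM in C57 males and 7.87, 7.73 and 5.35 CPM in C57 females (3.98 ± 0.49 (adjusted p = 0.021)). C4a has a near-identical copy, C4b, so its reads may be shared. Igf2bp3, an RNA-binding protein, stood at 7.84, 14.4 and 14.3 CPM in CD1 females and no higher than 3.47 CPM in other groups (-5.57 ± 0.56 (adjusted p = 0.0044)). Pdrg1, a chaperone-associated gene, was 10.2, 7.36 and 8.92 CPM in CD1 males and 16.6 to 22.2 CPM in the other 9 libraries (-1.20 ± 0.18 (adjusted p = 0.044)). The Igf2bp3 interaction was called in all 12 fits without 1 library, C4a in 8, Cyp2c40 in 5, Hspa1a, Abcd2 and A1bg in 3, and Lpl and Pdrg1 in 2. The highest adjusted p was 0.11 for C4a, 0.16 for Cyp2c40 (both without C57 female 2) and 0.21 for the last 5 (without C57 female 3).

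**Figure D5:**
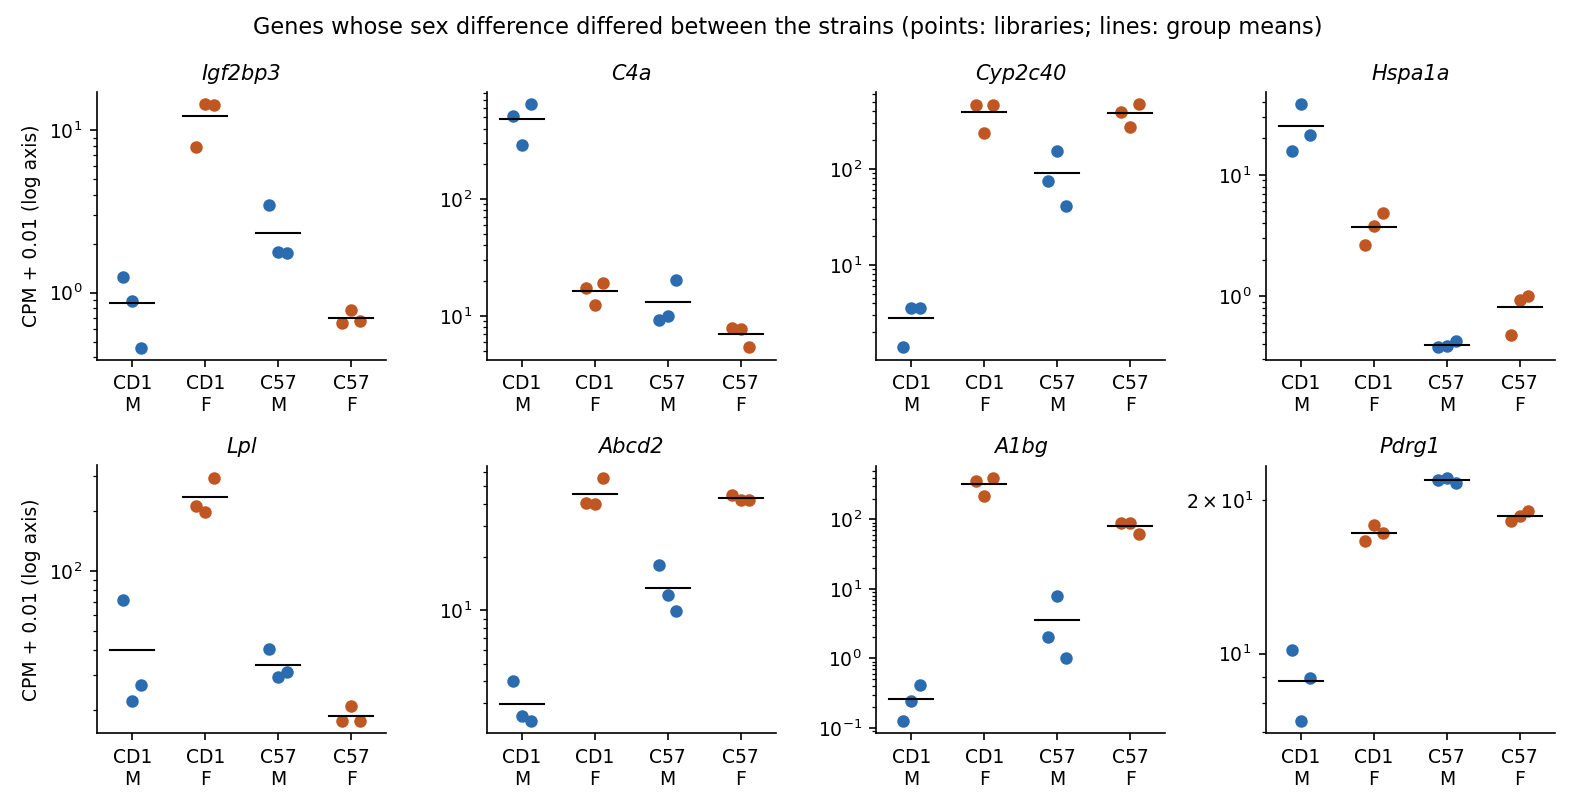
Levels of the 8 genes whose sex difference differed between the strains, in CPM + 0.01 on log axes, with points for libraries (blue males, orange females) and lines for means of 3. CD1 males are the low group for Cyp2c40, Abcd2, A1bg and Pdrg1, and CD1 females are the high group for Igf2bp3 and Lpl. For A1bg the CD1 females also lie above the C57 females.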

How the data were processed

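RNA of 12 mouse livers was measured by RNA-seq after poly(A) selection. The values are counts per gene as deposited by the authors, not normalized, in 1 table of the series. Per the submitters' processing notes, Trim Galore, HISAT2 and featureCounts were used with GRCm39 (mm39). How reads matching several genes were counted, and whether strand was used, is not given in the sources used here.

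Groups came from the labels. edgeR 4.0.16 (R 4.3.3, limma 3.58.1) was used with filterByExpr on the 4 groups, trimmed mean of M-values (TMM) scaling and the quasi-likelihood F test on strain plus sex, with Benjamini-Hochberg adjustment over all tested genes, X and Y included in the fit. Adjusted p-values in the text are from this test unless they are given for another fit. The other fits are those of 1 strain, the interaction, those without 1 library, that with no filter, and DESeq2. Each strain was also fitted alone, and the interaction was tested on the 4 group means. All tests were two-sided. P-values measure the spread between these libraries. Alternatives were RLE scaling, no filter, DESeq2 1.42.0, 4 group means, a replicate block, a stricter threshold, a 2-fold minimum, and leaving out each library. Tested on simulated data, the test on 12 libraries recovered 74.5% of 2-fold and 98.0% of 4-fold changes.

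Depth was 37.2 to 51.4 M counts per library. Intervals and floors cover counting error only.

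Named genes were the 12 with the largest difference in each direction among called genes with no overlap of the sexes, a mean of at least 10 CPM in the higher sex and a liver mean of at least 3% of that in every other tissue. To these came up to 4 called members of each list with the smallest p, the smallest p of each list with no call, and every called interaction whose highest group mean reached 10 CPM. Pseudogenes, ribosomal protein genes and genes without a name were not eligible. Some genes that this rule names are not reported here. Other genes were chosen after their values were seen. The comparison, members and lists were chosen with earlier results of these data known. Promoters are RefSeq sequences on GRCm38.p6, matched by symbol, from 250 bases before the annotated start.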

Additional observations from a re-analysis of the deposited data

Results flagged for a closer look

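The sex difference itself differed between CD1 and C57 for 8 genes, by the test of the interaction in edgeR (male minus female in CD1 minus the same in C57, log2). Females exceeded males by more in CD1 than in C57 for Cyp2c40, at -5.05 ± 0.69 (SE, 12 libraries), A1bg, at -5.91 ± 0.90, and Abcd2, at -2.25 ± 0.34. CD1 males held the lowest group mean of these 3 genes, and for A1bg all CD1 females also lay above all C57 females. Igf2bp3 stood at -5.57 ± 0.56 and Lpl at -3.40 ± 0.51, with CD1 females the highest group. Pdrg1 stood at -1.20 ± 0.18, with CD1 males the lowest group. C4a, at 3.98 ± 0.49, and Hspa1a, at 3.79 ± 0.54, had their highest mean in CD1 males. Each of the 8 except Igf2bp3 lost its call in at least 4 of the 12 fits without 1 library.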

How the results depend on the processing

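The 6 main values, the list counts, the differences of 92 genes chosen by the naming rule and the 8 interactions were recomputed under the alternatives, and none of these differences changed sign. Other differences given in the report, several of them near 0, were not recomputed. The 347 genes called for sex became 832 with DESeq2, 206 with a 2-fold minimum and 150 at an adjusted p under 0.01. In the 12 fits without 1 library the count ran from 236 (without C57 female 1) to 464 (without CD1 female 2). The 88 calls in CD1 became 448 with DESeq2 and 243 with no filter on low counts, and 52 to 117 without 1 library. The 324 calls in C57 became 845 and 670 under the same alternatives, and 157 to 269 without 1 library. The 8 called interactions became 137 and 76, and 1 to 19 without 1 library: 1 without C57 female 1, C57 female 2, C57 male 1 or CD1 female 1, and 19 without CD1 male 1. The share of CD1 calls with the same direction in C57 was 87.7% with no filter and 89.1% to 98.2% without 1 library, and the share of C57 calls with the same direction in CD1 was 79.4% and 81.2% to 93.5%. Why these values moved was not tested. RLE scaling, which gave 351 calls, kept each of the 6 main values within its margin.

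The groups share replicate numbers, but the labels do not say that a number marks a shared litter or day. In their deviations from group means, same-numbered libraries of different groups correlated between -0.13 and 0.23. Libraries of different groups with different numbers correlated between -0.18 and 0.18. These ranges overlap and rest on means of 3 libraries, so they cannot decide whether a number marks a shared litter or day. The main fit did not pair the samples. With the replicate block 310 genes were called for sex, 288 of them among the 347, and 10 for the interaction. Cyp17a1, Cyp2d40, Gys2, Serpina6 and Lect2, and the interactions of Cyp2c40, A1bg and Pdrg1, were not called under it.

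Depth limited genes at a few counts, such as Sult2a1 and Hsd3b1 in males. In simulated data the fit on 6 C57 libraries recovered 2.01% of 2-fold changes and that on 6 CD1 libraries 23.5%. For 4-fold changes the shares were 93.0% and 93.5%. The simulation gave both strains the same spread per gene, taken from all 12 libraries, so these shares do not describe either strain. The real C57 fit called differences under 2-fold, such as Cycs at 0.46 ± 0.10 (adjusted p = 0.049) and Ugt2b35 at 0.72 ± 0.11 (adjusted p = 0.013).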

Other observations

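The 17 autosomal genes called at least 16-fold higher in females, with a female mean of at least 10 CPM, were not equally low in all males. In C57 male 2 their median level was 2.89% of the female mean of its strain, against 0.125% to 0.997% in the other 5 males. C57 male 2 was the highest male in 49 of the 170 genes called higher in females. Gstp3 was high in CD1 male 1 and in CD1 females 1 and 2 and low in the other 9 libraries, as given in the report. In CD1 female 2, Cux2 was at 36.03 CPM against 2.61 to 6.35 CPM in the other 5 females.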
